A study of Homo sapiens with 6 samples.

Results

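The genes described here are 10 of 63186 in the table: MCFD2 and LMAN1, which form a cargo receptor, 5 other cargo receptors of the endoplasmic reticulum (LMAN2, SURF4, TMED2, TMED9 and TMED10), and 3 components of the COPII coat (SEC23A, SEC24D and SAR1A). They were picked by symbol, and each symbol matched 1 Ensembl identifier. They were chosen by role around MCFD2, and MCFD2 itself was chosen by its large drop in these same libraries. The difference between si-CHAF1A and si-Ctrl is therefore given for the members as values and fold changes with no p-value. How many of them were past the threshold is stated only beside the share or number of all genes. The cells are RBE, a human cell line from a cholangiocarcinoma that arose in bile ducts within the liver. In the 3 si-CHAF1A libraries the cells had received siRNA against CHAF1A, the large subunit of the histone chaperone CAF-1, and in the 3 si-Ctrl libraries a control siRNA. All were transfected by lipofection at about 60% confluency and collected after 48 h, with fresh medium at 24 h. The labels do not say whether several siRNAs were pooled, nor whether the 3 cultures of a group were set up on separate days.

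Secretory proteins leave the endoplasmic reticulum (ER) in vesicles coated by COPII. The small GTPase SAR1 starts the coat, SEC23 and SEC24 form its inner layer with SEC24 binding cargo, and SEC13 and SEC31 form the outer cage. Soluble cargo is held by receptors that span the membrane and cycle between the ER and the Golgi. LMAN1 (also called ERGIC-53) is a mannose-binding lectin, and MCFD2 is a small calcium-binding EF-hand protein that binds to it. Loss of either gene in people causes combined deficiency of the coagulation factors V and VIII, which the pair carries. COPI vesicles bring receptors and escaped ER proteins back.

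The libraries held 15643381 to 20918997 counts. CHAF1A stood at 11.1, 12.9 and 11.2 CPM (normalised counts, scaled to the TMM-adjusted library size) in si-CHAF1A and at 51.5, 59.8 and 51.0 CPM in si-Ctrl (log2 fold change -2.21, edgeR adjusted p = 2.57e-10). The library si-Ctrl 2 stood apart from the other controls on the second principal component (29.6 against -14.9 and -13.9, 11.2% of the variance), and values without it are given where it matters. Bile duct keratins and related markers (6 genes) summed to 5318.7 to 5839.4 CPM in si-CHAF1A and 4111.1 to 4778.7 CPM in si-Ctrl. Hepatocyte markers (5 genes) summed to 0.574 to 0.951 CPM and 0.303 to 0.86 CPM, and leukocyte markers (4 genes) to 0.238 to 0.517 CPM and 0.657 to 0.832 CPM. Fibroblast markers (4 genes) summed to 15.8 to 30.3 CPM in si-CHAF1A and 8.66 to 11.5 CPM in si-Ctrl. The fibroblast sum was mostly COL1A1 and PDGFRB, with at most 6 counts of DCN and 4 of LUM in a library. PDGFRB rose from 1.3 CPM in si-Ctrl to 5.37 CPM in si-CHAF1A (log2 fold change 2.04, edgeR adjusted p = 4.56e-06). COL1A1 did not pass (0.87, edgeR adjusted p = 0.0717). SOX9 alone of the bile duct markers was lower in si-CHAF1A (log2 fold change -0.26, edgeR adjusted p = 0.00674). KRT19 (0.65), KRT8 (0.38), KRT18 (0.34) and EPCAM (0.32) were higher (edgeR adjusted p = 7.53e-06, 5.96e-04, 4.80e-04 and 0.00197). KRT7 did not pass (0.19, edgeR adjusted p = 0.0774). No marker was at 0 in all libraries, but CD3E had only 1 count, in si-CHAF1A 3, and CD68 only 1, in si-Ctrl 2. The part of these levels in the results below was not tested.

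MCFD2 (ENSG00000180398, chromosome 2, 46901870 to 46941855 on the minus strand, GRCh38) stood at 58.7, 58.2 and 61.9 CPM in si-CHAF1A 1, 2 and 3, and at 298, 290.0 and 308 CPM in si-Ctrl 1, 2 and 3. The groups lay far apart, and within each of them the libraries differed little. The means were 59.6 ± 1.99 CPM in si-CHAF1A and 299 ± 9.11 CPM in si-Ctrl (SD, n = 3 each), a fitted log2 fold change of -2.33 (SE 0.07). It was the 7th lowest fold change of the 15911 genes tested. LMAN1 (ENSG00000074695, chromosome 18, 59327823 to 59359962), its partner in the receptor, stood at 207, 220.1 and 224 CPM in si-CHAF1A and at 254, 213 and 258 CPM in si-Ctrl. Here the groups overlapped, because si-Ctrl 2 lay among the si-CHAF1A libraries (log2 fold change -0.15, SE 0.08, and -0.24 without si-Ctrl 2). The level of MCFD2 over that of LMAN1, each per summed exon length, was 0.32, 0.298 and 0.311 in si-CHAF1A, against 1.33, 1.54 and 1.35 in si-Ctrl. The length covers all annotated exons of a gene, so these ratios compare the groups and do not count molecules. In bulk RNA, a lower share of cells with the transcript and less of it in each cell cannot be told apart.

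**Figure D1:**
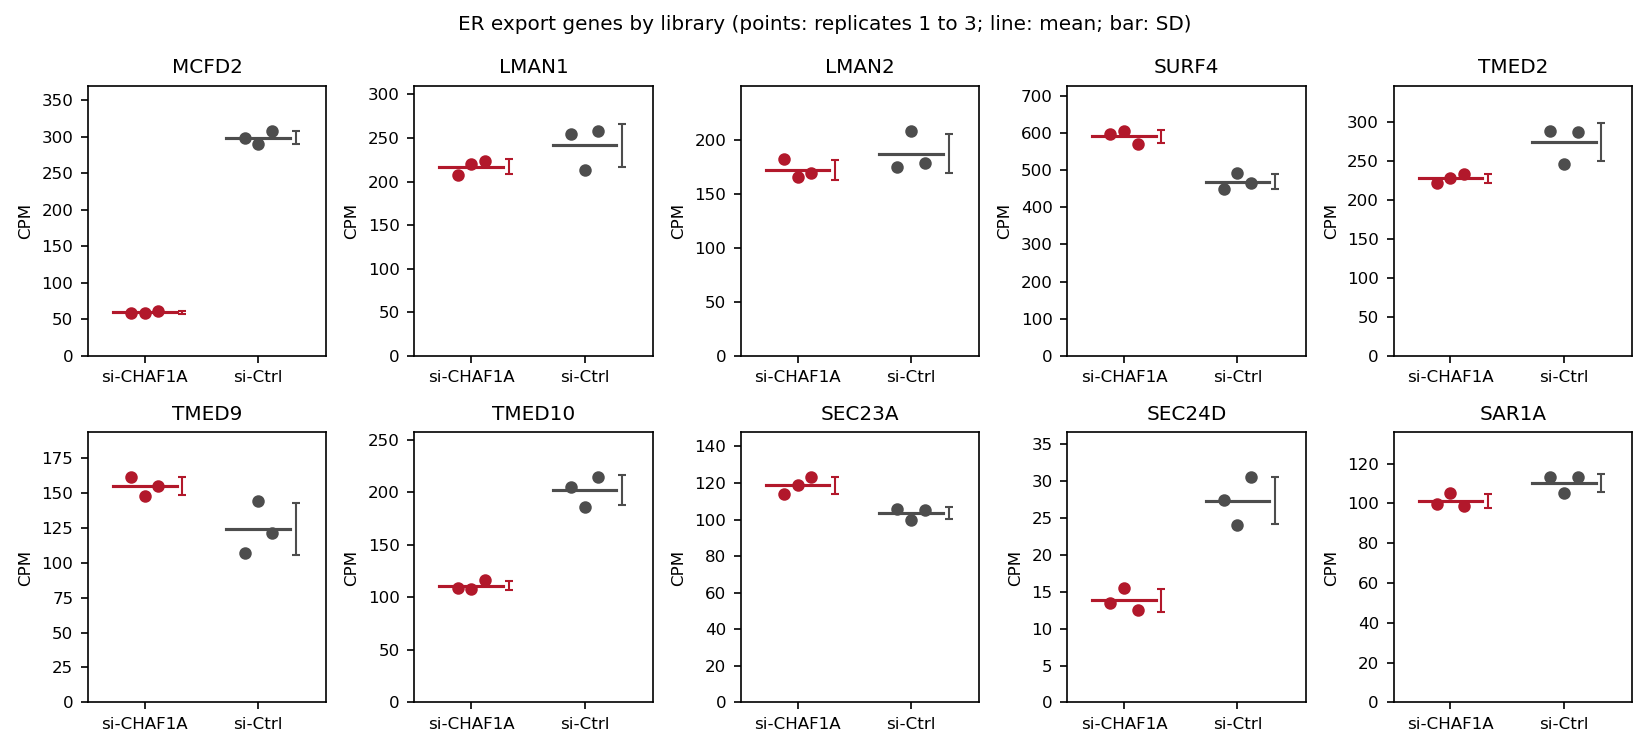
Normalised counts (CPM) of the 10 genes in each of the 3 si-CHAF1A libraries (left, red) and the 3 si-Ctrl libraries (right, grey), with the mean as a line and the SD as a bar; each panel has its own axis from 0. MCFD2, TMED10 and SEC24D lie well below the controls, SURF4 lies above them, and LMAN1 and LMAN2 overlap.

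Exons of MCFD2 overlap those of TTC7A, a scaffold of the phosphatidylinositol 4-kinase complex, over 154 bp on the opposite strand (2.6% of the exon length of MCFD2). TTC7A rose, with 103, 105 and 99.3 CPM in si-CHAF1A and 59.9, 68.6 and 59.2 CPM in si-Ctrl (log2 difference 0.71, SE 0.07, edgeR adjusted p = 2.29e-06), so the overlapping pair moved in opposite directions. A further antisense gene, ENSG00000228925, shares 441 bp with MCFD2 and was at 0.556 ± 0.0534 CPM in si-CHAF1A and 0.75 ± 0.399 CPM in si-Ctrl (SD, n = 3 each; fitted log2 difference -0.39, edgeR adjusted p = 0.543). Whether the counting used the strand is not stated in the sources used here. The exons of TMED2 share 286 bp with TMED2-DT (3.5 ± 0.485 CPM in si-CHAF1A, 3.2 ± 0.358 CPM in si-Ctrl), and those of SEC23A share 452 bp with SEC23A-AS1, which had 3 counts over all 6 libraries. The 8 pseudogenes named after members held 4 counts in all.

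The other lectin receptor, LMAN2 (also called VIP36; chromosome 5, 177331562 to 177351852), stood at 182, 165 and 169 CPM in si-CHAF1A and 175, 208 and 178 CPM in si-Ctrl. The groups overlapped (log2 fold change -0.12, SE 0.07, and -0.04 without si-Ctrl 2). SURF4 (chromosome 9, 133361449 to 133376166), the mammalian relative of yeast Erv29 and a receptor for soluble cargo such as lipoproteins, stood at 596, 605 and 569.6 CPM in si-CHAF1A and at 449.6, 491 and 466 CPM in si-Ctrl. Every si-CHAF1A library was above every si-Ctrl library, by a smaller margin than seen for MCFD2 (log2 fold change 0.33, SE 0.06).

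TMED2, TMED9 and TMED10 belong to the p24 family, small membrane proteins that join into mixed complexes, take up GPI-anchored cargo and bind both coats. TMED10 (chromosome 14, 75131470 to 75176631), also called p23, stood at 109, 108 and 116 CPM in si-CHAF1A and at 205, 186 and 214 CPM in si-Ctrl. The groups did not overlap, and the log2 fold change was -0.86 (SE 0.07), the 437th lowest of all genes tested. TMED2 (chromosome 12, 123584531 to 123598577), its p24 partner, stood at 222, 229 and 234 CPM in si-CHAF1A and at 289, 247 and 288 CPM in si-Ctrl. TMED9 (chromosome 5, 177592158 to 177596124) stood at 161, 148 and 155 CPM in si-CHAF1A and at 107, 144 and 121 CPM in si-Ctrl. Both sets of values were apart, TMED2 on the lower side (log2 fold change -0.27, SE 0.07) and TMED9 on the higher side (0.32, SE 0.09), and in both si-Ctrl 2 was the control nearest to the si-CHAF1A libraries. Without si-Ctrl 2 the TMED2 value was -0.35 and the TMED9 value 0.44, and without si-Ctrl 1 they were -0.23 and 0.22. The level of TMED10 over that of TMED2 was 0.375 ± 0.0102 in si-CHAF1A and 0.566 ± 0.0176 in si-Ctrl (per summed exon length, SD, n = 3 each).

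Of the COPII members, SEC24D (chromosome 4, 118722823 to 118838683), one of the cargo-binding subunits, stood at 13.5, 15.5 and 12.5 CPM in si-CHAF1A and at 27.4, 24.1 and 30.5 CPM in si-Ctrl. It was the least abundant of the 10 genes, and its groups did not overlap (log2 fold change -0.98, SE 0.11, the 298th lowest). SEC23A (chromosome 14, 39031919 to 39109646), which activates the GTPase of SAR1, averaged 119 ± 4.45 CPM in si-CHAF1A and 104 ± 3.44 CPM in si-Ctrl (SD, n = 3 each; log2 fold change 0.19, SE 0.07). SAR1A (chromosome 10, 70147289 to 70170523), the GTPase itself, stood at 99.5, 105 and 98.8 CPM in si-CHAF1A and at 113, 105 and 113 CPM in si-Ctrl (-0.12, SE 0.07). The SEC23A groups were apart by a small margin, and the nearest SAR1A libraries, si-CHAF1A 2 and si-Ctrl 2, were at the same rounded level.

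All 10 genes passed the filter on low counts. Of the 10, 3 were on the higher side of the edgeR threshold of 0.05 (SURF4, TMED9 and SEC23A) and 4 on the lower side (MCFD2, TMED2, TMED10 and SEC24D), where 18.5% of all 15911 genes were higher and 19.3% lower. The groups did not overlap for 8 of the 10 genes and for 48.2% of all genes. Since these libraries also served to choose the members, nothing is read from these counts. The median log2 fold change was -0.14 over the members and 0.00 over all genes. Without si-CHAF1A 1 the higher members came to 1, where 2351 of all genes were higher instead of 2944. They came to 2 without si-CHAF1A 2, si-CHAF1A 3, si-Ctrl 1 or si-Ctrl 3, where 2349, 2346, 2530 and 2475 of all genes were higher. Without si-Ctrl 2 the lower members came to 6, where 3709 of all genes were lower instead of 3064.

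The order of the members by level per length changed mainly for MCFD2. In si-CHAF1A the order in TPM (counts per exon length of GENCODE 29, scaled to the same sum in each library) was SURF4 at 536 ± 21.8, LMAN2 at 228 ± 13.9, TMED9 at 199 ± 9.8, TMED2 at 186 ± 2.42, LMAN1 at 100.4 ± 2.92, TMED10 at 69.9 ± 2.12, SAR1A at 45.7 ± 1.59, SEC23A at 41.5 ± 1.02, MCFD2 at 31.1 ± 0.788 and SEC24D at 4.37 ± 0.495 (SD, n = 3). In si-Ctrl it was SURF4 at 411 ± 11.8, LMAN2 at 239 ± 8.1, TMED2 at 218 ± 31.9, TMED9 at 153 ± 14.8, MCFD2 at 151 ± 13.3, TMED10 at 123 ± 16, LMAN1 at 108 ± 17.4, SAR1A at 48.3 ± 4.84, SEC23A at 35.2 ± 3.28 and SEC24D at 8.37 ± 1.44 (SD, n = 3). MCFD2 was thus the ninth in si-CHAF1A and the fifth in si-Ctrl. In si-Ctrl the ranges of mean ± SD overlapped between the neighbours LMAN2 and TMED2, TMED9 and MCFD2, MCFD2 and TMED10, and TMED10 and LMAN1, and in si-CHAF1A they overlapped between no neighbours, with TMED9 and TMED2 nearest to doing so. Without MCFD2 the summed level of the 9 other genes was 1443.0, 1407.9 and 1382.7 TPM in si-CHAF1A and 1358.4, 1269.3 and 1402.9 TPM in si-Ctrl, and the groups overlapped.

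The shares of the members within their families were compared as values, with no test. SEC23B, the second SEC23 gene, fell 1.44-fold (88.1 ± 1.43 CPM in si-CHAF1A, 127 ± 2.99 CPM in si-Ctrl, SD, n = 3 each; fitted log2 difference -0.52, SE 0.06, edgeR adjusted p = 1.06e-05). SEC23A made up 38.7%, 40.3% and 40.2% of the SEC23 level per length in si-CHAF1A, against 28.7 ± 0.318% in si-Ctrl (SD, n = 3), and the groups were far apart. SEC24D made up 4.24 ± 0.45% of the SEC24 level per length in si-CHAF1A and 8.19 ± 0.877% in si-Ctrl. Of the other SEC24 genes, SEC24A was lower by 0.25 on the log2 scale (edgeR adjusted p = 0.0392, and 0.0702 to 0.174 without any single library other than si-Ctrl 2). SEC24B (0.06, edgeR adjusted p = 0.615) and SEC24C (0.16, edgeR adjusted p = 0.115, and 0.000557 without si-Ctrl 2) did not pass. SAR1A held 75.4 ± 1.51% of the SAR1 level per length in si-CHAF1A and 76.9 ± 1.05% in si-Ctrl, and SAR1B differed by -0.01 (edgeR adjusted p = 0.961).

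Among the lectins, LMAN2L (also called VIPL), which stays in the ER, fell 1.76-fold (19.1 ± 1.75 CPM in si-CHAF1A, 33.7 ± 0.456 CPM in si-Ctrl, SD, n = 3 each; fitted log2 difference -0.81, SE 0.09, edgeR adjusted p = 4.98e-06). LMAN1 held 28.6 ± 1.8% of the lectin level per length in si-CHAF1A and 28.1 ± 3.73% in si-Ctrl, and LMAN2 held 65.1 ± 1.65% and 62.1 ± 3.97%. In si-Ctrl 2 LMAN1 held 23.8%, against 30.2% and 30.3% in si-Ctrl 1 and 3. LMAN2 held 66.7% there, against 59.7% and 60.0%. Beside si-Ctrl 1 and 3 alone, the si-CHAF1A shares were lower for LMAN1 (26.6% to 29.8%) and higher for LMAN2 (63.9% to 66.9%). LMAN1L was too low to be tested. In the p24 family TMED10 held 9.96 ± 0.285% in si-CHAF1A and 15.8 ± 0.544% in si-Ctrl, while TMED9 held 28.3 ± 1.12% and 19.9 ± 3.72%, with si-Ctrl 2 at 24.1%. TMED2 held 26.5 ± 0.557% and 28 ± 1.6%, with overlapping groups. Of the other p24 genes TMED4 (-0.20, edgeR adjusted p = 0.0199, and 0.0626 to 0.0897 without any single si-CHAF1A library) and TMED8 (-0.21, edgeR adjusted p = 0.0376, and 0.081 to 0.128 without any single library other than si-Ctrl 2) were lower. TMED1 (-0.04), TMED3 (-0.12), TMED5 (-0.32) and TMED7 (-0.32) did not pass (edgeR adjusted p = 0.851, 0.164, 0.0555 and 0.0554). Both TMED5 and TMED7 were near the threshold, and they passed without si-Ctrl 2, where each was lower by 0.49 (edgeR adjusted p = 5.68e-10 and 1.08e-11). They also passed with DESeq2 (adjusted p = 0.0278 and 0.0181), without a filter on low counts (edgeR adjusted p = 0.000568 and 0.00018) and with the replicate block (edgeR adjusted p = 0.0342 and 0.0307). TMED6 was too low to be tested.

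**Figure D2:**
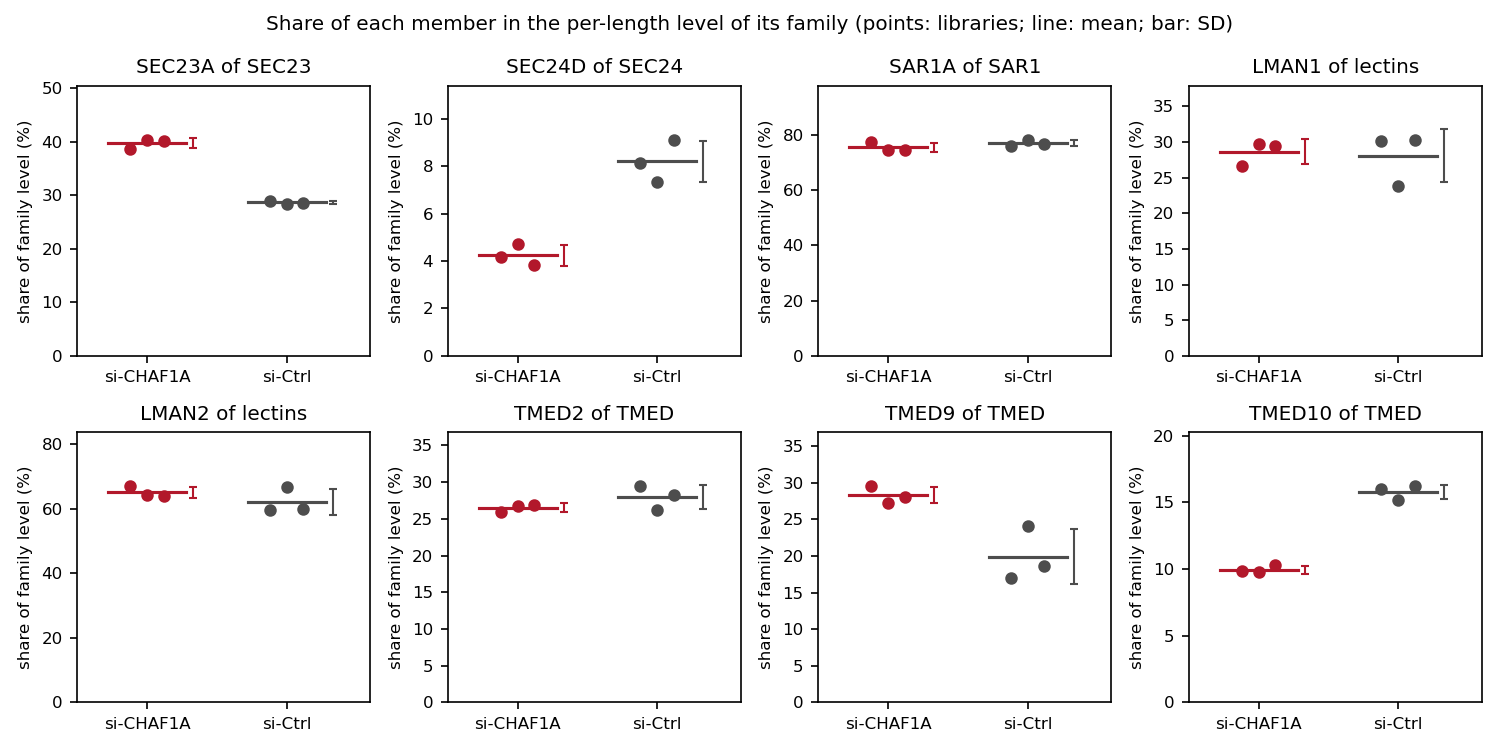
Share of each member in the summed per-length level of its family (%), in the 3 si-CHAF1A libraries (left, red) and the 3 si-Ctrl libraries (right, grey), with the mean as a line and the SD as a bar. SEC23A takes a larger share in si-CHAF1A, SEC24D and TMED10 take smaller ones, and the shares of SAR1A, LMAN1 and LMAN2 overlap between the groups.

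Of 14 tested genes among the remaining COPII coat and its assembly factors, 3 were higher and 3 lower, with a median log2 fold change of 0.06. Beside this and each list below stand the shares over all 15911 genes tested, 18.5% higher and 19.3% lower. Beside SEC23B and SEC24A, the lower gene was MIA3, also called TANGO1, which helps to pack large cargo such as collagen (-0.30, edgeR adjusted p = 0.00344). The cage subunit SEC31A rose by 0.23 (edgeR adjusted p = 0.0116, and 0.0628 to 0.0671 without si-CHAF1A 2, si-CHAF1A 3 or si-Ctrl 3). SEC31B rose by 0.69 at under 10 CPM in every library (edgeR adjusted p = 0.0215), and without si-CHAF1A 1 it was at 0.38 (edgeR adjusted p = 0.182). It also missed the threshold without si-Ctrl 1 (edgeR adjusted p = 0.0576). The last of the higher genes was KLHL12 (0.24, edgeR adjusted p = 0.0236, and 0.0504 to 0.0775 without any single library other than si-Ctrl 2), an adaptor of the ligase that modifies SEC31, named after its value was seen. The count of higher genes came to 6 without si-Ctrl 2 and to 1 without any other single library, and that of lower genes to 2 without any single library other than si-Ctrl 2.

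Among 15 tested cargo receptors outside the members, 5 fell and 1 rose (median -0.12). ERGIC2, a cycling membrane protein of the compartment between ER and Golgi, fell 1.66-fold (34.1 ± 1.43 CPM in si-CHAF1A, 56.7 ± 7.24 CPM in si-Ctrl, SD, n = 3 each; fitted log2 difference -0.73, SE 0.09, edgeR adjusted p = 1.86e-05). CNIH1, a cornichon protein that brings growth factor precursors into COPII vesicles, fell by 0.34 (edgeR adjusted p = 0.00328). The others that were lower were LMAN2L, TMED4 and TMED8, and the higher one, picked out once values were known, was ERGIC1 (0.18, edgeR adjusted p = 0.0435). ERGIC1 missed the threshold without any single library other than si-Ctrl 2 (edgeR adjusted p = 0.0777 to 0.176), without a filter on low counts (0.105) and with the replicate block (0.0915). The number of lower genes was 3 without any single si-CHAF1A library and 7 without si-Ctrl 2. The number of higher genes was 0 without si-CHAF1A 1, si-CHAF1A 2 or si-Ctrl 3, and 2 without si-Ctrl 2, and the 1 gene counted without si-CHAF1A 3 or si-Ctrl 1 was not ERGIC1.

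On the return route, of 16 COPI coat and retrieval genes, 2 were higher and 3 lower, with a median of -0.04. The coat subunit COPB2 fell by 0.26 (edgeR adjusted p = 0.00574), and ARF1, the GTPase that recruits the coat, fell by 0.23 (edgeR adjusted p = 0.0125, and 0.0581 to 0.0669 without si-CHAF1A 2 or 3). The last of the lower genes, named after its value was seen, was the coat subunit COPG1 (-0.20, edgeR adjusted p = 0.0384, and 0.134 to 0.173 without si-CHAF1A 2 or 3). The coat subunit COPE rose by 0.25 (edgeR adjusted p = 0.0193) and COPZ2 by 0.48 (edgeR adjusted p = 0.0239). Neither of these rises passed without si-CHAF1A 1, si-CHAF1A 3 or si-Ctrl 1, where the higher genes of this list came to 0, and COPE did not pass without si-Ctrl 3 (1 higher gene). The lower genes came to 1 without si-CHAF1A 2 or 3 and to 5 without si-Ctrl 2.

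Of 25 tethers and SNAREs that act when the vesicles arrive, 4 were higher and 4 lower, with a median of -0.03. The Golgi matrix protein GOLGA2 (GM130) rose by 0.50 (115 ± 4.6 CPM in si-CHAF1A, 81.1 ± 0.991 CPM in si-Ctrl, SD, n = 3 each; edgeR adjusted p = 2.16e-05). The SNARE proteins YKT6, GOSR1 and BET1L fell by 0.52, 0.41 and 0.30 (edgeR adjusted p = 1.09e-05, 7.44e-04 and 0.00443). The others past the test, named after their values were seen, were the tether USO1 (0.31), the SNARE STX5 (0.33) and YIPF5 (0.20) on the higher side and the TRAPP subunit TRAPPC4 (-0.27) on the lower side (edgeR adjusted p = 0.0052, 0.0235, 0.0346 and 0.0356). Of these, USO1 passed without each library. STX5 missed the threshold without si-CHAF1A 2, si-CHAF1A 3 or si-Ctrl 1 (edgeR adjusted p = 0.0546 to 0.12), YIPF5 without any si-CHAF1A library or si-Ctrl 3 (0.0625 to 0.134), and TRAPPC4 without any single library other than si-Ctrl 1 (0.0563 to 0.123). The higher genes came to 2 without si-CHAF1A 2 or 3 and the lower to 6 without si-Ctrl 2.

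The list of cargo carried by LMAN1, with or without MCFD2, held 6 genes, all named here. Of these, 3 were higher and 1 lower, with a median log2 fold change of 0.30. Which of the 6 need MCFD2 was not tested. F5, which encodes coagulation factor V, stood at 19.1, 18.1 and 18.5 CPM in si-CHAF1A and at 10.1, 10.3 and 9.63 CPM in si-Ctrl. It rose 1.85-fold (log2 difference 0.89, SE 0.10, edgeR adjusted p = 5.83e-06), with the groups far apart. F8, for factor VIII, stood at 12.2, 11.7 and 12.6 CPM in si-CHAF1A and at 10.7, 10.7 and 10.9 CPM in si-Ctrl, apart but not past the test (0.18, SE 0.11, edgeR adjusted p = 0.226). LGALS3BP, a secreted glycoprotein, rose 1.35-fold (378 ± 10.5 CPM in si-CHAF1A, 280.5 ± 25.5 CPM in si-Ctrl, SD, n = 3 each; edgeR adjusted p = 1.57e-04). SERPINA1, alpha-1-antitrypsin, stood at 38.3, 52.4 and 29.6 CPM in si-CHAF1A and at 22.1, 16.1 and 24.8 CPM in si-Ctrl. Its libraries were widely spread (0.94, SE 0.25, edgeR adjusted p = 0.0284), and it did not pass without si-CHAF1A 1, si-Ctrl 1 or si-Ctrl 2 (edgeR adjusted p = 0.0722 to 0.174), with 2 higher genes left without si-CHAF1A 1 or si-Ctrl 1. Of the cathepsins, CTSC was lower by 0.21 (edgeR adjusted p = 0.0217, and 0.0584 to 0.101 without any single library other than si-Ctrl 2, where no gene of the list was lower) and CTSZ was at 0.16 (edgeR adjusted p = 0.102, and 0.000138 without si-Ctrl 2). These are levels of RNA, and secretion was not measured.

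Of 17 ER chaperones and genes of the unfolded protein response, which raises the folding and export capacity of a stressed ER, 5 were higher and 5 lower, with a median of 0.06. Calnexin (CANX), a lectin chaperone that holds glycoproteins until they are folded, stood at 761, 750.4 and 784 CPM in si-CHAF1A and at 1655.6, 1644.6 and 1707.4 CPM in si-Ctrl. It fell 2.18-fold (log2 difference -1.13, SE 0.06, edgeR adjusted p = 7.65e-10). Its soluble relative calreticulin (CALR) rose by 0.31 (edgeR adjusted p = 0.00452) and the disulphide isomerase PDIA4 by 0.25 (edgeR adjusted p = 0.0033), while the co-chaperone DNAJB11 fell by 0.41 (edgeR adjusted p = 2.04e-04). The others past the test, named after their values were seen, were PDIA3 (0.17), DNAJC3 (0.21) and CRELD2 (0.29) on the higher side (edgeR adjusted p = 0.0268, 0.0428 and 0.0456) and HSP90B1 (-0.19), SDF2L1 (-0.45) and MANF (-0.25) on the lower side (edgeR adjusted p = 0.0139, 0.0144 and 0.0255). Each of these 6 missed the threshold without at least 1 library: HSP90B1, PDIA3 and CRELD2 without any single one other than si-Ctrl 2 (edgeR adjusted p = 0.0537 to 0.0726, 0.0537 to 0.11 and 0.0804 to 0.195), DNAJC3 without any si-CHAF1A library or si-Ctrl 3 (0.0524 to 0.158), MANF without si-CHAF1A 1, si-CHAF1A 2 or si-Ctrl 3 (0.0514 to 0.124), and SDF2L1 without si-CHAF1A 2 (0.0959). HSPA5 (BiP), the usual marker of the response, was at 1714.7 ± 15.1 CPM in si-CHAF1A and 1607.6 ± 35 CPM in si-Ctrl (SD, n = 3 each; 0.09, edgeR adjusted p = 0.214, and 0.0126 without si-Ctrl 2), a gene picked out once values were known. The higher genes came to 2 without any single si-CHAF1A library or si-Ctrl 3 and to 3 without si-Ctrl 1, and the lower genes to 3 without si-CHAF1A 1 or si-Ctrl 3 and to 2 without si-CHAF1A 2.

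Among 7 tested transcription factors that act on secretory genes, 2 fell and 1 rose (median 0.01). XBP1, a factor of the unfolded protein response that also acts on COPII and cargo receptor genes, fell by 0.46 (34.4 ± 0.997 CPM in si-CHAF1A, 47.4 ± 2.86 CPM in si-Ctrl, SD, n = 3 each; edgeR adjusted p = 2.54e-04). CREB3L2, which drives SEC23A in cartilage of mice, fell by 0.48 (edgeR adjusted p = 2.73e-04). CREB3L3, a factor of liver and gut, was higher by 1.66 at a very low level (1.07, 1.03 and 1.01 CPM in si-CHAF1A, 0.256, 0.202 and 0.516 CPM in si-Ctrl; edgeR adjusted p = 0.00663). Spliced and unspliced XBP1 cannot be told apart in gene counts.

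**Figure D3:**
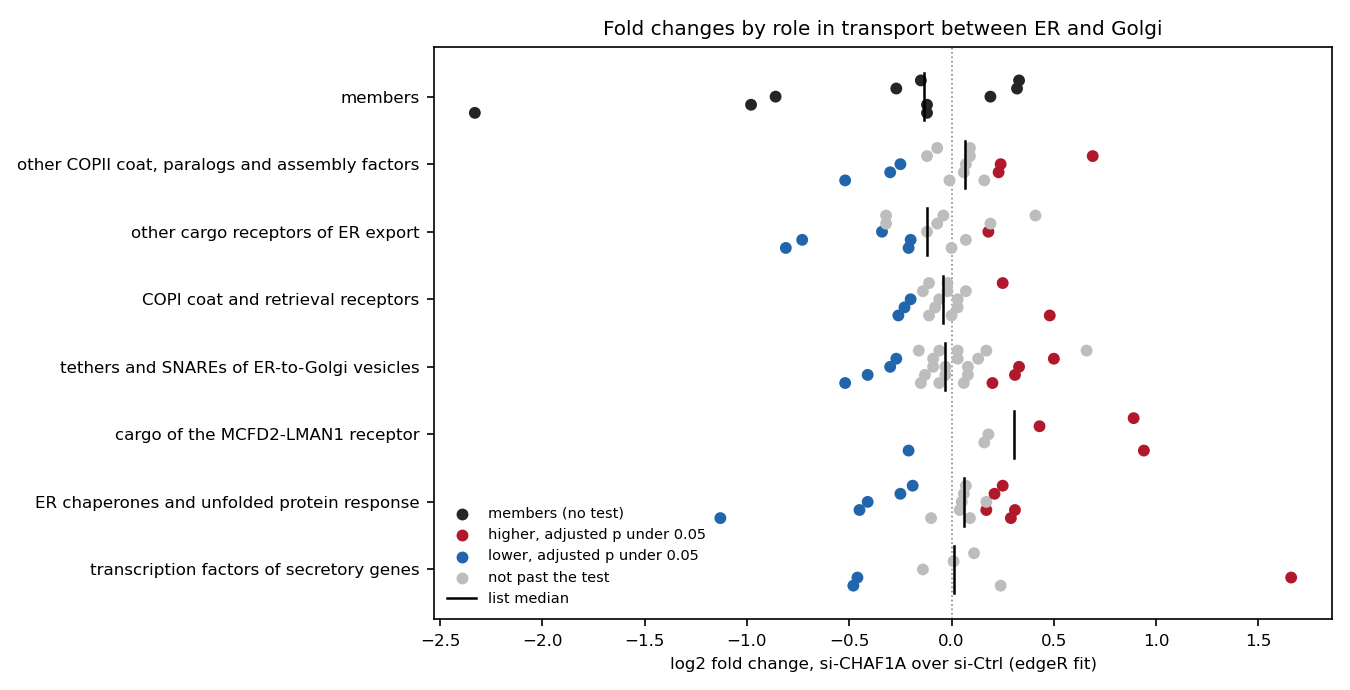
Fitted log2 fold change of si-CHAF1A over si-Ctrl for each tested gene (points) of the members and 7 related lists (rows), with the list median as a black line; red and blue points are higher and lower at an edgeR adjusted p under 0.05, grey points are not past it, and the members are black because they carry no test. MCFD2 at -2.33 lies far to the left of the other genes shown, CANX is at -1.13 and CREB3L3 at 1.66. The row of MCFD2-LMAN1 cargo also holds cargo that may need LMAN1 alone.

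Over the 6 libraries, the genes whose centred log2 CPM lay nearest to MCFD2 were NSA2 (Euclidean distance 0.27), CHAF1A (0.36), GTF2A2 (0.37), HMGN5 (0.44) and CEP55 (0.47), with log2 fold changes of -2.12, -2.21, -2.12, -2.02 and -1.96. None of the 5 is a gene of ER export. By Pearson correlation over the same 6 libraries, which leaves the size of the difference out, the nearest were CANX (0.9999), the ER lectin chaperone described above, then NSA2, CALD1, SNX27 and TMEM14C (0.9994 to 0.9995), so 1 of the 5 was on both lists. The 6 points fall into 2 groups of libraries, and these correlations are a description.

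Promoter windows of RefSeq (GRCh38.p14, 250 bases before to 50 after a start) were given for 8 members; the other members, TMED9 and SEC24D, had none. They were searched on both strands for the ER stress element ERSE, for TGACGTGG (the unfolded protein response element bound by ATF6 and XBP1) and for ACGTGG, a part of that element. The last was added after the windows had been seen. ERSE was in none of the 8, and in 0.142% of 11286 tested genes with a window. TGACGTGG was in the window of SEC23A and in 1.24% of those genes. ACGTGG was in a window of 6 of the 8 (MCFD2, SURF4, SAR1A, TMED2, SEC23A and TMED10, but not LMAN1 or LMAN2) and in 15.4% of those genes. MCFD2 has 3 windows, of which 1 held it. The windows show the letters that members with very different fold changes share, with ACGTGG or its complement in capitals, each from 5′ to 3′ on the strand of its gene.
MCFD2, chr2:46915900-46915959, minus strand: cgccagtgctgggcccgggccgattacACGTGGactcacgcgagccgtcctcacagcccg
SURF4, chr9:133376081-133376140, minus strand: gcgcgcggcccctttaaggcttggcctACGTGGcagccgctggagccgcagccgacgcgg
TMED2, chr12:123584430-123584489, plus strand: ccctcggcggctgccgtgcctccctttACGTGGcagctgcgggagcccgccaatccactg
SEC23A, chr14:39103205-39103264, minus strand: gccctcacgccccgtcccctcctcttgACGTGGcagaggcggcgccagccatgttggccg
TMED10, chr14:75176609-75176668, minus strand: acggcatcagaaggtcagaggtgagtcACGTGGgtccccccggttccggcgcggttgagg
SAR1A, chr10:70170682-70170741, minus strand: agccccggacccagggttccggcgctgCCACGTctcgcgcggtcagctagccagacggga

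The members that hold ACGTGG include the lowest, MCFD2 (-2.33), and the highest, SURF4 (0.33). The bases shown for MCFD2, SURF4 and SEC23A lie inside the gene bounds of GENCODE 29, and those for TMED10 lie partly inside. All are from windows at starts that RefSeq lists. The letters alone do not show that a factor binds there.

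An earlier scan of these fold changes had found the 7-base words GAAGAGA and AAGAGAA more often in the 3' UTRs of lower genes, so their match with low members is no independent evidence. On the transcript strand of the coding transcript with the longest coding part (GENCODE 29), 5 of the 10 members held one or both, as did 29% of 12397 tested genes whose 3' UTR had 50 or more bases. MCFD2 held 6 occurrences in 4 runs (3' UTR of 3589 bases), TMED10 held 3 in 2 runs (3415 bases), SAR1A held 2 (5187 bases), and LMAN1 (3270 bases) and SEC24D (692 bases) held 1 each. LMAN2, SURF4, TMED2, TMED9 and SEC23A held none, in 3' UTRs of 524, 2044, 1848, 708 and 1319 bases, where the median over the 12397 genes was 1072 bases. The log2 fold changes of the 5 with a word were -2.33 (MCFD2), -0.98 (SEC24D), -0.86 (TMED10), -0.15 (LMAN1) and -0.12 (SAR1A). The 5 without a word lay between -0.27 and 0.33. Both the words and MCFD2 were picked from these same fold changes, so nothing is read from this split. The sequences of the siRNAs are not given in the labels, and any relation of the words to them was not tested. TMED2, at -0.27, held none and was lower than LMAN1 and SAR1A, which held words. The sites are shown to give the letters and their places in all 5 members that hold a word. In each line the run at the stated position is in capitals, and where a neighbouring run falls in the same line it is in lower case and has a line of its own. They are written from 5′ to 3′ on the transcript strand, with the position of the first capital counted from 1 at the base after the stop codon.
MCFD2, position 145, chr2:46905302-46905328: actggggtgaGAAGAGAtaagagaaat
MCFD2, position 153, chr2:46905294-46905320: gagaagagatAAGAGAAatgaaagaga
MCFD2, position 164, chr2:46905282-46905309: agagaaatgaAAGAGAAGAGAAatggga
MCFD2, position 386, chr2:46905061-46905087: acatggcagcAAGAGAAaatgaggaag
SEC24D, position 123, chr4:118723376-118723402: aactttccagGAAGAGAtggcatttag
TMED10, position 1899, chr14:75132970-75132996: taatgtaaatAAGAGAAagtgtggata
TMED10, position 2942, chr14:75131926-75131953: gaagataggaGAAGAGAAtattttattt
LMAN1, position 1500, chr18:59329577-59329603: agaacactgaAAGAGAAtatgccagtg
SAR1A, position 2373, chr10:70150087-70150113: ctgcatagagGAAGAGAcatttagggt
SAR1A, position 3970, chr10:70148490-70148516: gtgctccaccAAGAGAAaaactctttg

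**Figure D4:**
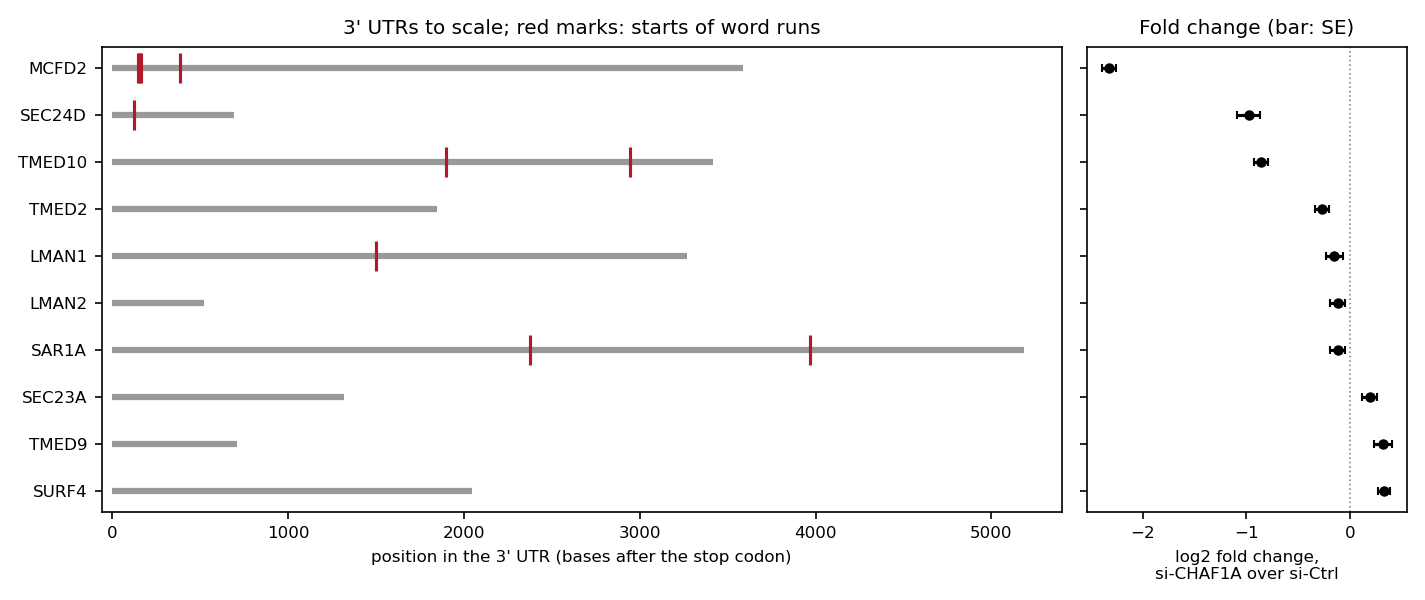
Left, the 3' UTR of each member drawn to scale in bases after the stop codon (grey), with the starts of the word runs in red; right, the log2 fold change of si-CHAF1A over si-Ctrl with its SE. Members run from the lowest fold change (top) to the highest, and the runs of MCFD2 lie between positions 145 and 386 of 3589.

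In MCFD2 the first 3 runs lie close together, starting at positions 145, 153 and 164, and the run at position 164 holds 3 overlapping occurrences. The words found more often in higher genes by the same scan, CGGAGAA and TCGGAGA, were in the 3' UTR of 1 member, SAR1A (2 occurrences), and in 3.46% of the 12397 genes.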

How the data were processed

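RNA of 6 libraries (3 per group, reads of 150 bp) was used as the gene-level counts that the authors deposited in 1 table of whole numbers, with no normalisation. Per the submitters' processing notes, fastp 0.20.1, HISAT2 2.1.0, SAMtools 1.9, featureCounts 2.0.1, StringTie 2.1.4 and the build hg38 were used. Settings, the annotation release and the use of strand in counting: not given in the sources used here. Column names with NC were read as negative control, and the level of CHAF1A bears on that reading. Columns of other samples numbered 0, and rows without a gene name 0.

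Symbols were given to 62665 of 63186 identifiers from a table of names, and GENCODE 29 holds 58173 of them, whose summed exon lengths give the TPM values. Genes were kept by filterByExpr (minimum count 10, minimum total 15; 15911 genes). The fit was edgeR 4.0.16 in R 4.3.3 (robust quasi-likelihood, TMM) over all of these genes, with Benjamini-Hochberg adjustment at 0.05. SE is the absolute log2 fold change divided by the square root of F. CPM uses the TMM factors. The common dispersion gave a biological coefficient of variation of 8.12%. The pipeline was tested on simulated data.

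The members and all gene lists were chosen with earlier results of these data known. Named beside the members are CHAF1A, genes whose exons overlap a member, tested paralogs, up to 4 genes per list with the smallest adjusted p past the threshold and any at 2-fold or more, and the 5 genes nearest to MCFD2 (log2 CPM with prior count 2, mean of at least 2). The other genes past the test in the lists, HSPA5, F8, CTSZ and the genes nearest by Pearson correlation fall outside this rule and were named after their values were seen. Within groups, no 2 libraries were duplicates (chi-square per degree of freedom 2.3 to 13.7). The design text calls the 3 cultures of a group biological replicates without saying more, so p-values describe only how these samples spread, which may be technical. The alternatives were DESeq2 1.42.0, RLE size factors, 2 filters, a replicate block and leaving out each library.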

Additional observations from a re-analysis of the deposited data

How the results depend on the processing

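The alternative fits gave 110 log2 fold changes for the 10 members, and all moved by less than the replicate SD. Leaving out 1 of 3 libraries can hardly move a group mean by more than that SD. For the fits without a library this outcome was therefore nearly fixed in advance, and nothing is read from it. Over left-out libraries MCFD2 ranged from -2.35 to -2.31 and CHAF1A from -2.28 to -2.13. With the left-out library varied, 2346 to 3519 genes were higher and 2358 to 3709 lower, with 1 to 3 members higher and 4 to 6 lower. Ranges for the lists were 1 to 6 higher and 2 to 3 lower for the other COPII genes, 0 to 2 and 3 to 7 for other cargo receptors, 0 to 2 and 1 to 5 for COPI, 2 to 6 and 3 to 6 for tethers and SNAREs, 2 to 3 and 0 to 1 for cargo, 2 to 7 and 2 to 5 for chaperones, and 1 and 2 throughout for transcription factors. Of 42 genes past the test among 100 tested pathway genes, 20 stayed past it without each library. Higher cargo receptors numbered 2 with RLE size factors or the filter of 1 CPM, 0 without a filter, and 0 with the replicate block. Higher chaperones numbered 2 without a filter and 2 with the block, and lower cargo genes 0 with the block. The block uses the replicate numbers, which did not pair the samples (correlations of deviations -0.086, -0.064 and -0.003); with it 2675 genes were higher and 2723 lower. DESeq2 gave 2702 and 2827. Without division by length, the share of SEC24D differed by -6.06 percentage points (-3.95 per length), that of TMED9 by 5.6 (8.4) and that of TMED2 by -0.2 (-1.5). For SEC23A the difference was 12.3 (11.1) and for TMED10 -6.3 (-5.84). Those of SAR1A, LMAN1 and LMAN2 moved by less than the replicate SD. Among the values of other named genes under the alternative fits, 106 lost a call, 26 gained one and 0 reversed.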
